A study of Mus musculus with 6 samples.

Results

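The 34 genes described here are an endothelial identity set, the genes by which cells that line blood and lymph vessels are usually recognised. They were picked by symbol as known endothelial genes, with earlier results of these data known. The rule set no cutoff on a measured value, and measured signal entered it through the choice of the brightest probe. All 34 were on the array, out of 36870 gene names in all. A gene was represented by its brightest probe, and 33 of the 34 were tested among 20475 genes that passed the same filter on dim probes. The exception was Prox1. Its brightest probe was well above background in 3 of 6 readings of tamoxifen samples and 3 of 6 readings of oil samples.

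The samples were lung tumors of C57BL/6J mice. Every mouse, treated or not, carried a floxed Ror1 gene (Ror1f/f), CAG-CreER and SPC-hEGFRdel746-750. CAG-CreER is a Cre recombinase that tamoxifen activates and that the broadly active CAG promoter drives, so its activity is not limited to one cell type. The last is a transgene for human EGFR with a deletion that makes the receptor active, under the surfactant protein C promoter of alveolar epithelium. One group received tamoxifen and the other corn oil over 4 weeks. Treatment began at an age of 16 weeks and ended at 20 weeks, when the tumors were taken. By its title, the series is about a conditional Ror1 knockout, Ror1 being a receptor tyrosine kinase-like protein, in lung adenocarcinoma and about HIF-1α. There were 3 tamoxifen and 3 oil samples, and each was hybridised together with its counterpart of equal number. Each such couple was run on 2 arrays with the dyes exchanged, which gave 6 arrays in 3 couples. Whether each number stands for an animal of its own is not in the labels, so p-values reflect the spread between these samples and nothing wider.

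In each channel of each array, 53.9% to 60.6% of probes stood well above background. The 2 arrays of a couple, with exchanged dyes, gave ratios that correlated across the 33 members with r = 0.767, 0.924 and 0.913 in couples 1, 2 and 3, and across all genes with 0.763, 0.770 and 0.787. Genes are not independent replicates. Ror1 itself had a log2 ratio of tamoxifen over oil of 0.58 (couple 1), 0.44 (couple 2) and 0.18 (couple 3), averaging 0.40 ± 0.21 (SD over n = 3 couples; limma, adjusted p = 0.69). Ror1 signal on this probe was thus not lower in the samples labelled tamoxifen, and the difference did not pass the threshold. Another Ror1 probe stood well above background in 0 of 6 tamoxifen readings and 0 of 6 oil readings, with ratios of -0.13, -0.07 and -0.08. The labels do not name the floxed exon, so either probe may lie outside it and then checks nothing, and the samples are therefore called by their labels only. The couples were not alike in sex-linked transcripts. Xist, which is transcribed from the inactive X chromosome of females, had a log2 signal of 6.61, 9.09 and 6.08 in tamoxifen samples 1, 2 and 3, against 8.74, 8.99 and 5.97 in the oil samples. Eif2s3y, a Y-linked gene, was at 9.72, 6.20 and 10.70 in tamoxifen samples and at 6.01, 6.06 and 10.07 in oil samples. The Y-linked genes Ddx3y and Uty were high in the same samples. The brightest probe of Kdm5d, also Y-linked, did not set the samples apart, at 7.76, 7.63 and 7.85 against 7.84, 7.61 and 7.96. A dimmer Kdm5d probe was high in the same samples as Eif2s3y. Couple 1 thus set a sample with Y-linked signal against an oil sample with high Xist, while in couples 2 and 3 both samples were alike. In couple 1 a difference between treatments and one between the sexes cannot be told apart.

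Vessel-lining cells hold together through junction proteins such as VE-cadherin (Cdh5) and claudin 5 (Cldn5) and sense angiopoietins, apelin, adrenomedullin and sphingosine 1-phosphate through dedicated receptors. Their identity is kept by ETS factors such as ERG and by the SOXF factors Sox7, Sox17 and Sox18. The lung capillary bed of mice holds general capillary cells, known for Gpihbp1, Plvap and Aplnr, and large thin aerocytes, known for Apln and Ednrb, which lie against the gas-exchange surface. In RNA from a whole tumor, fewer endothelial cells and less RNA per endothelial cell cannot be told apart.

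What the array measured was the binding of labelled cRNA to one 60-base oligonucleotide per gene. A few of these probes are shown because their genes define the cell type or are described below, and because each holds a frame without a stop codon; each is written as in the scanner files, without capitals. Positions are those of the files on mouse build mm9, and exon annotation was not used here. Pecam1 (CD31) lies at chr11:106540864-106540923, Tie1 at chr4:118144132-118144191, Sox17 at chr1:4481890-4481949 and Clec14a at chr12:59368573-59368632.
Pecam1: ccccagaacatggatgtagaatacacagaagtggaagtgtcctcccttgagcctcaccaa
Tie1: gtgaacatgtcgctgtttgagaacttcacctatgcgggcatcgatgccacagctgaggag
Sox17: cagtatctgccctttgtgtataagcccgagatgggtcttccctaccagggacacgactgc
Clec14a: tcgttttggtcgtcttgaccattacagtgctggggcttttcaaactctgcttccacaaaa

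The promoters of 15 members were in the RefSeq promoter table of build GRCm38.p6 (250 bases before the start and 50 after it). They are of interest because ERG and the SOXF factors are members themselves. The letters GGAA, the core that ETS factors bind, stood on either strand in 20 of the 21 promoters of these genes, and in 96.0% of all 32851 promoters of the table. The longer form CCGGAA, which contains GGAA, was found in 0 of 21 member promoters and in 14.9% of all promoters. For AACAAT, a SOX-type site, the counts were 4 of 21 member promoters (1 each of Calcrl, Emcn, Erg and Tek) and 10.7% of all promoters. ACGTG, the core of a hypoxia response element, was present in 2 of 21 member promoters (Clec14a and She) and in 19.6% of all promoters. These are letters in a window and not shown to be sites. The windows of Tek, of Tie1 and of Apln are printed as the receptor pair of the set and its most variable member. Capitals mark GGAA or AACAAT on the printed strand and their reverse forms TTCC and ATTGTT, which overlap once in Tek. Tek spans chr4:94739039-94739338 on the plus strand, Tie1 chr4:118489800-118490099 on the minus strand and Apln chrX:48034804-48035103 on the minus strand.
Tek: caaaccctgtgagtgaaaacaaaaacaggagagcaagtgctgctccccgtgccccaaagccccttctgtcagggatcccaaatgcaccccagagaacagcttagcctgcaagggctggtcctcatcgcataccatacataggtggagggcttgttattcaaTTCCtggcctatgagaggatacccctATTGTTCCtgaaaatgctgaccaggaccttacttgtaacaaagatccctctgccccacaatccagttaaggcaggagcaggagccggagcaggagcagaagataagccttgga
Tie1: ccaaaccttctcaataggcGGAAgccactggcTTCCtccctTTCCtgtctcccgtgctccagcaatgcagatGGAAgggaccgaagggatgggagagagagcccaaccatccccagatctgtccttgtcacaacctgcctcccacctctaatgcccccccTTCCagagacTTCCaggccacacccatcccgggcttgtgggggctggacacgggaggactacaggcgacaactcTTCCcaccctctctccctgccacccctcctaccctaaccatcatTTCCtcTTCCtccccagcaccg
Apln: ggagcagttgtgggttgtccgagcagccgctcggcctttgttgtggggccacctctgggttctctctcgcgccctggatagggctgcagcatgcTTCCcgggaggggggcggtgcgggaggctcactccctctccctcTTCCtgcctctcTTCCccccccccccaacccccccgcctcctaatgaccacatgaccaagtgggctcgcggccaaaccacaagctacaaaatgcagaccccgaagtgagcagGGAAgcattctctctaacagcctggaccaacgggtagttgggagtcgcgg

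Not a single member passed the test between tamoxifen and oil. With limma and Benjamini-Hochberg adjustment over all 20475 genes, 0 of 33 members were higher and 0 were lower at the threshold of 0.05 (all genes: 0% in each direction), and the lowest adjusted p was 0.69 for a member and 0.41 for any gene. Without adjustment, Sox7 and Podxl were under 0.05, both with higher signal in tamoxifen samples (2 of 33 members; 614 or 3% of all genes). With lower signal 0 members were under it (822 or 4.01% of all genes). The count of members under 0.05 changed with the couple left out. Without couple 1 it was 4, all higher (995 of all 20475 genes, in either direction). Without couple 2 it was 2, both lower (1307 genes), and without couple 3 it was 0 (1515 genes). The mean ratio was above 0 for 24 of 33 members, against 48.8% of all genes. Its median over the members was 0.08 on the log2 scale, against -0.004 over all genes. The median was 0.20 without couple 1, with 31 members above 0, but 0.05 without couple 2 (17 above 0) and 0.04 without couple 3 (19 above 0). Over all genes the median was -0.004, -0.007 and -0.006 in these fits, and signs in them were counted for members only. The means ran between -0.18 for Vwf and 0.32 for Sox7.

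The ratios differed more between couples than their mean differed from 0. The median log2 ratio of the 33 members was -0.14 in couple 1, 0.16 in couple 2 and 0.20 in couple 3, while the median of all tested genes lay between -0.01 and 0.00 in each. In couple 1, 28 members were below 0 (51.5% of all genes). In couple 2, 29 members were above 0 (49.8% of all genes), and in couple 3, 26 were (48.9% of all genes). The same 3 signs, below 0 in couple 1 and above 0 in couples 2 and 3, were found for 17 of 33 members and for 11% of all genes. Couple 1 gave the lowest of the 3 ratios for 28 members (35.9% of all genes), and couple 3 gave the highest for 19 (33.8%). Members were chosen together for their cell type, so these counts describe genes that share a source and are not independent of each other.

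**Figure D1:**
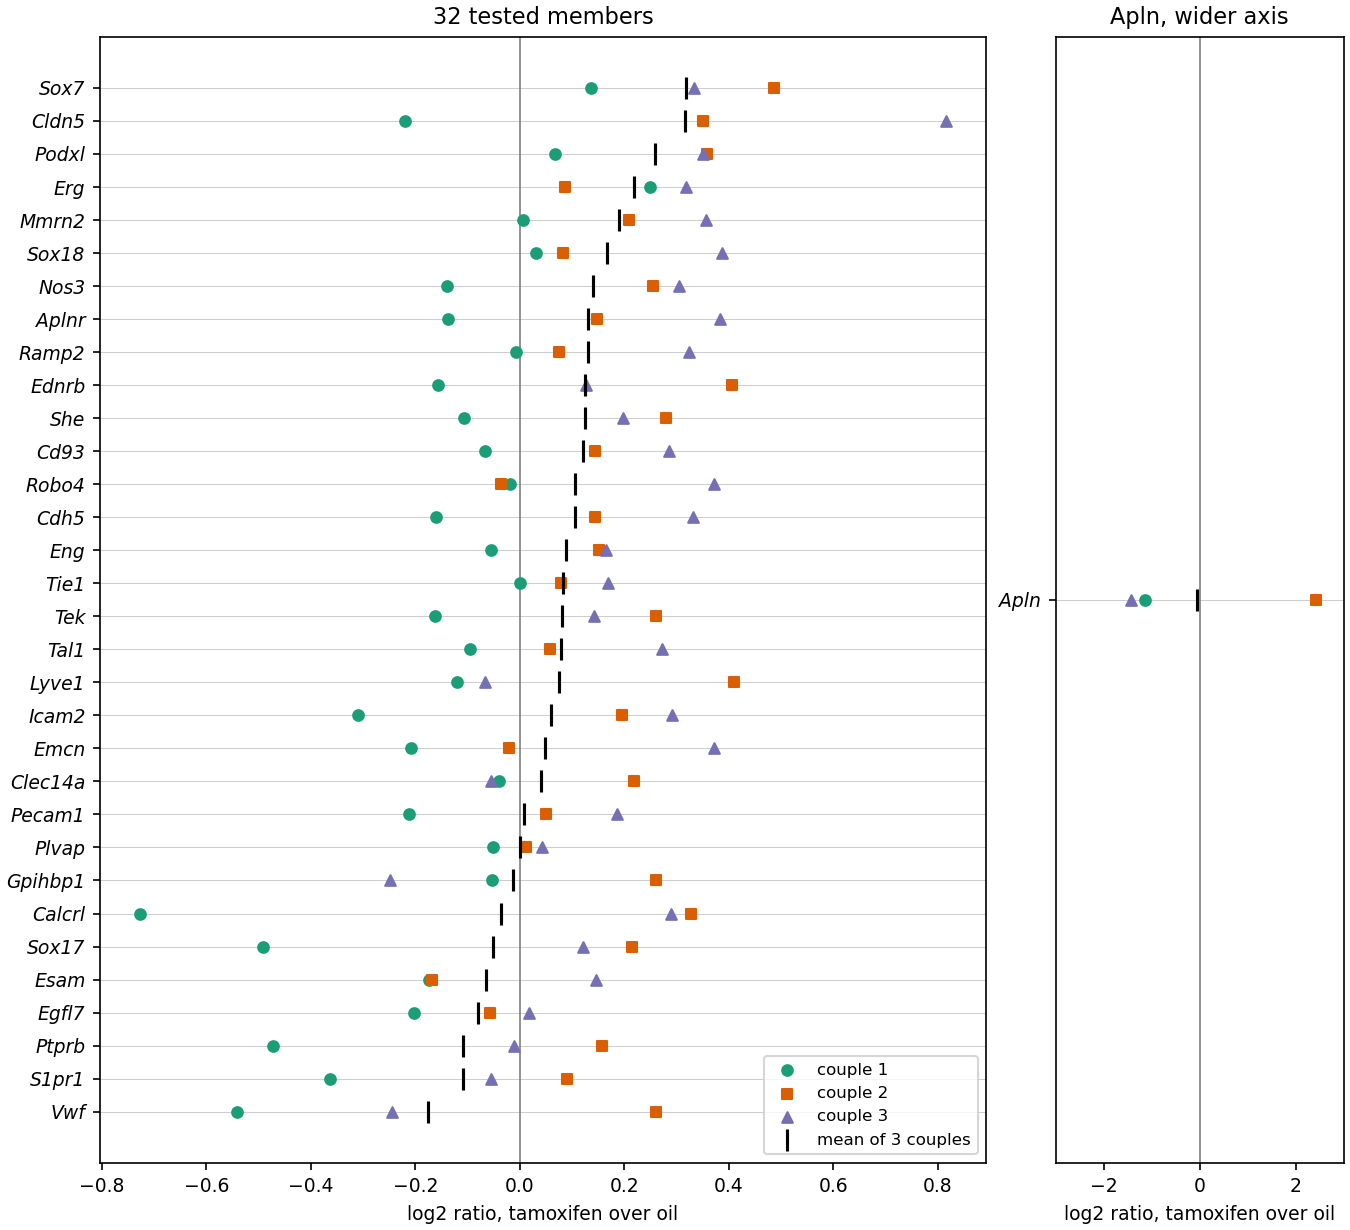
Log2 ratio of tamoxifen over oil for each of the 33 tested members (rows, ordered by the mean), 1 point per couple (circle, square and triangle for couples 1, 2 and 3) and a black bar for the mean of the 3 couples. The right panel shows Apln on a wider axis. Circles lie left of 0 for 28 members, and the squares and triangles lie mostly right of it.

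With the dyes exchanged, 23, 31 and 28 of 33 members kept their sign in couples 1, 2 and 3. In couple 1, 21 members were below 0 in both orientations (37.4% of all genes). In couple 2, 27 members were above 0 in both (35.9% of all genes), and in couple 3, 22 were (34.5% of all genes). Plvap had the widest gap between orientations in couple 1, 0.58, and in couple 2, 0.39, and Tek had it in couple 3, at 0.35. On all 6 arrays, 2 members, Podxl and Erg, were above 0 (6.04% of all genes), and 0 were below 0 (7.21% of all genes). In all 3 couples, 5 members were above 0 (Sox7, Podxl, Erg, Mmrn2 and Sox18), a share of 15.2%, near the 13.8% of all genes. None was below 0 in all 3 couples, against 16.4% of all genes.

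**Figure D2:**
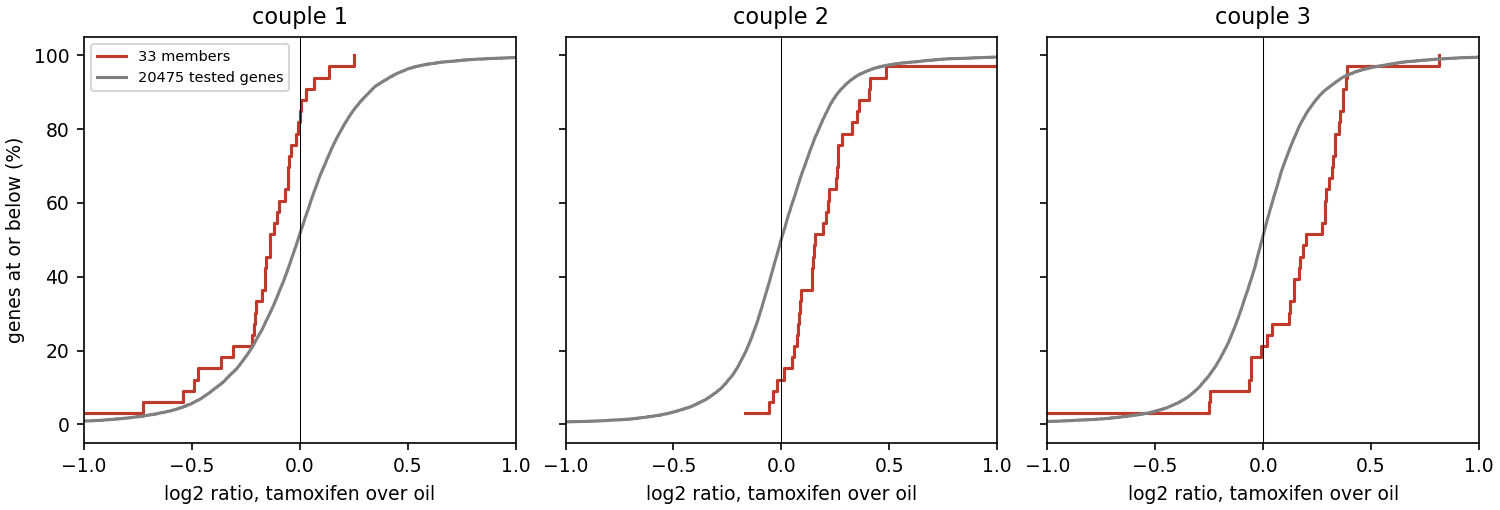
Share of genes (vertical axis, percent) whose log2 ratio of tamoxifen over oil lies at or below the value on the horizontal axis, in couples 1, 2 and 3 from left to right, for the 33 members (red) and all 20475 tested genes (grey). The axis is limited to 1 log2 unit on each side of 0, which leaves out Apln. The members' median lies at -0.14, 0.16 and 0.20, the grey curve's near 0 in each panel.

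The level of each sample, the log2 signal of its channel averaged over its 2 arrays, shows which samples stood behind these ratios. The mean level of the 33 members was 9.72, 9.98 and 9.84 in tamoxifen samples 1, 2 and 3, against 9.90, 9.74 and 9.69 in oil samples 1, 2 and 3. Tamoxifen sample 1 was thus close to oil samples 2 and 3, and oil sample 1 lay between tamoxifen samples 2 and 3. This order depended on Apln. Without it the mean levels of the other 32 were 9.66, 9.89 and 9.83 in tamoxifen samples, against 9.81, 9.72 and 9.63 in oil samples. Oil sample 1 then lay below tamoxifen samples 2 and 3, and tamoxifen sample 1 was closest to oil sample 3. The groups overlapped. The lowest of the 6 samples was tamoxifen sample 1 for 8 members (23% of all genes), tamoxifen sample 2 for 0 (16%) and tamoxifen sample 3 for 2 (14.6%). It was oil sample 1 for 0 (12.8%), oil sample 2 for 7 (15.4%) and oil sample 3 for 16 (18.2%). The highest was tamoxifen sample 1 for 1 member (22.1% of all genes), tamoxifen sample 2 for 15 (15.4%) and tamoxifen sample 3 for 10 (13.4%). It was oil sample 1 for 3 members (15.7%), oil sample 2 for 1 (14%) and oil sample 3 for 3 (19.3%). For 5 members, the same 5 that were above 0 in all couples, every tamoxifen level lay above every oil level (5.25% of all genes). In 2 of them the groups barely parted. The lowest tamoxifen and highest oil levels were 11.043 and 11.037 for Mmrn2, and 9.125 and 9.114 for Sox18. The opposite order was found for 0 members (7.24% of all genes).

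Among the transcription factors, 5 of 6 were tested, 0 passed and 3 were above 0 in every couple (13.8% of all genes). Sox7, a SOXF factor of early endothelium (probe at chr14:64569419-64569478), had a log2 signal of 8.13, 8.31 and 8.05 in tamoxifen samples 1, 2 and 3, against 8.00, 7.82 and 7.72 in oil samples. The groups did not overlap, although tamoxifen sample 3 exceeded oil sample 1 by little. Its ratios were 0.14, 0.49 and 0.33, averaging 0.32 ± 0.18 (SD over n = 3 couples, as for all means below), or 1.25-fold (adjusted p = 0.69, limma). Erg, the ETS factor that maintains endothelial genes (chr16:95582331-95582390), was at 7.76, 7.60 and 7.69 in tamoxifen samples and at 7.51, 7.51 and 7.37 in oil samples. All 3 tamoxifen levels were above the oil levels. The mean ratio was 0.22 ± 0.12, or 1.16-fold (adjusted p = 0.69). It was 0.34 with plain background subtraction and 0.36 with the scanner's or the deposited ratios (adjusted p = 0.74 in each). Sox18, the SOXF factor known for lymphatic specification, was at 9.14, 9.13 and 9.24 in tamoxifen samples, against 9.11, 9.04 and 8.85 in oil samples. Most of its difference came from couple 3, at 0.39, beside 0.03 and 0.08 in couples 1 and 2 (mean 0.17 ± 0.19, adjusted p = 0.74).

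Sox17, the SOXF factor tied to arterial identity, differed in sign from Sox7 and Sox18 in couple 1. Its level was 7.49, 8.06 and 7.87 in tamoxifen samples, against 7.98, 7.84 and 7.75 in oil samples. Tamoxifen sample 1 was the lowest of all 6 and tamoxifen sample 2 the highest. The ratios were -0.49, 0.21 and 0.12 (mean -0.05 ± 0.38, adjusted p = 0.95). Tal1, a basic helix-loop-helix factor of blood and endothelium, had ratios of -0.10, 0.06 and 0.27 (mean 0.08 ± 0.18, adjusted p = 0.87). Prox1, the master factor of lymphatic endothelium, has 2 probes on the array; the other did not rise well above background on any array, in either channel. No ratio is given for it.

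Of the 10 further receptors, coreceptors and surface glycoproteins, 9 had a mean above 0 (48.8% of all genes) and 0 passed. Podxl, the sialomucin podocalyxin on the luminal face of vessels (chr6:31470405-31470464), had a log2 signal of 7.82, 7.99 and 7.79 in tamoxifen samples, against 7.76, 7.63 and 7.44 in oil samples. The groups were apart by a small step, between tamoxifen sample 3 and oil sample 1. Its ratios of 0.07, 0.36 and 0.35 averaged 0.26 ± 0.17, or 1.196-fold (adjusted p = 0.69, limma). With the scanner's log ratio or the deposited value table the mean was 0.43 (adjusted p = 0.74). Mmrn2, an extracellular protein that binds Cd93 and Clec14a, was at 11.04, 11.05 and 11.27 in tamoxifen samples, against 11.04, 10.85 and 10.91 in oil samples. In couple 1 the 2 samples were level, at a ratio of 0.01, and the mean was 0.19 ± 0.18 (adjusted p = 0.71). Cd93, a C-type lectin-like receptor, was at 12.63, 12.66 and 12.65 in tamoxifen samples, against 12.70, 12.52 and 12.36 in oil samples. The tamoxifen samples were nearly equal and the oil samples were spread around and below them. Its mean ratio was 0.12 ± 0.18 (adjusted p = 0.79). Clec14a, the other lectin-like partner of Mmrn2, had ratios of -0.04, 0.22 and -0.06 (adjusted p = 0.93). In couple 3 it was thus on the other side of 0 from Mmrn2 and Cd93.

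The remaining surface genes had means close to 0. Eng, the endoglin coreceptor for BMP ligands, averaged 0.09 ± 0.12, and Robo4, a roundabout receptor that stabilises vessels, averaged 0.11 ± 0.23. Robo4 was at -0.02 and -0.04 in couples 1 and 2 and at 0.37 in couple 3. Emcn, the sialomucin endomucin of capillaries and veins, had ratios of -0.21, -0.02 and 0.37. In both genes the mean rested on couple 3. Plvap, which forms the diaphragms of endothelial openings, was the steadiest member, at -0.05, 0.01 and 0.04 (mean 0.00 ± 0.05, adjusted p = 0.998), but its dye orientations differed by more than these values. Gpihbp1, which carries lipoprotein lipase across the capillary wall, was at -0.05, 0.26 and -0.25. Lyve1, a hyaluronan receptor of lymphatic endothelium that some macrophages also carry, was at -0.12, 0.41 and -0.07 (adjusted p = 0.91). These 2 genes were above 0 in couple 2 and below 0 in the other couples.

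All 5 junction and adhesion genes were below 0 in couple 1 (51.5% of all genes) and above 0 in couple 3 (48.9%). Of the 5, 4 were above 0 in couple 2 (49.8% of all genes). Cldn5, the main claudin of endothelial tight junctions, had a log2 signal of 10.43, 10.87 and 10.51 in tamoxifen samples, against 10.65, 10.52 and 9.70 in oil samples. Oil sample 3 stood below the other samples, and the rest overlapped. The ratios of -0.22, 0.35 and 0.81 averaged 0.32 ± 0.52, or 1.24-fold (adjusted p = 0.75, limma). Its mean was 0.58 without couple 1 and 0.07 without couple 3. Cdh5, VE-cadherin of the adherens junction, had -0.16, 0.14 and 0.33 (mean 0.10 ± 0.25), and Pecam1, CD31, had -0.21, 0.05 and 0.19 (mean 0.01 ± 0.20). Icam2, an adhesion molecule at endothelial contacts, was at -0.31, 0.19 and 0.29 (mean 0.06 ± 0.32). Esam, an adhesion molecule of tight junctions, was at -0.17, -0.17 and 0.15 (mean -0.07 ± 0.18). Their adjusted p ran between 0.75 and 0.99. Pecam1, Icam2 and Esam are also carried by platelets or leukocytes.

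The Tie receptors and their phosphatase had unlike ratios in couple 1, a difference that was not tested. Tek (Tie2), the receptor of the angiopoietins, was at -0.16, 0.26 and 0.14 (mean 0.08 ± 0.22), and Tie1, its coreceptor with no established ligand of its own, at 0.00, 0.08 and 0.17 (mean 0.08 ± 0.08). Ptprb, the phosphatase VE-PTP that acts on Tek, had a log2 signal of 11.28, 11.85 and 11.79 in tamoxifen samples, against 11.76, 11.70 and 11.80 in oil samples. Tamoxifen sample 1 stood below the other 5, which lay close together. Its ratios were -0.47, 0.16 and -0.01 (mean -0.11 ± 0.33, adjusted p = 0.88, limma), and a second, dimmer probe gave -0.34, 0.12 and -0.15.

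Among the G protein-coupled receptors and their partners, all 6 were below 0 in couple 1 (51.5% of all genes). All 6 were above 0 in couple 2 (49.8% of all genes). Apln, on the X chromosome (probe at chrX:45378593-45378652), encodes apelin, the peptide ligand of Aplnr, and was the member that varied most. Its log2 signal was 11.40, 12.61 and 10.07 in tamoxifen samples, against 12.55, 10.18 and 11.51 in oil samples. Each group spanned over 2 log2 units, and the highest and the lowest sample were both tamoxifen samples. The ratios were -1.15, 2.42 and -1.44 (mean -0.06 ± 2.15, adjusted p = 0.99, limma). By its range over couples Apln ranked 14 of all 20475 genes. It was also the only member over 2-fold in any couple (1 of 33; 3.29% of all genes), and its 2 dye orientations gave 2.42 and 2.42 in couple 2. Aplnr, the receptor, was at -0.14, 0.15 and 0.38 (mean 0.13 ± 0.26, adjusted p = 0.82).

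Calcrl and Ramp2 form the adrenomedullin receptor of blood and lymph vessels, and their ratios differed in couple 1. Calcrl, the receptor chain, had a log2 signal of 9.62, 10.81 and 10.52 in tamoxifen samples, against 10.35, 10.48 and 10.24 in oil samples. Tamoxifen sample 1 was the lowest of the 6 by more than the spread of the oil samples. Its ratios were -0.73, 0.33 and 0.29 (mean -0.04 ± 0.60, adjusted p = 0.98, limma). Ramp2, the accessory chain, was at 11.71, 11.91 and 11.68 in tamoxifen samples, against 11.72, 11.84 and 11.35 in oil samples. Here tamoxifen and oil sample 1 were level, and oil sample 3 was low. The mean ratio was 0.13 ± 0.17 (adjusted p = 0.78), and a second probe gave 0.03, 0.08 and 0.21. S1pr1, the sphingosine 1-phosphate receptor that tightens the endothelial barrier, was at -0.36, 0.09 and -0.06 (mean -0.11 ± 0.23). Ednrb, endothelin receptor B, was at -0.16, 0.41 and 0.13 (mean 0.13 ± 0.28), and a second probe of it gave -0.04, 0.28 and 0.05.

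Among the secreted and intracellular members, Vwf, von Willebrand factor of endothelial granules and platelets, had the lowest mean of the set. Its log2 signal was 12.02, 12.45 and 12.37 in tamoxifen samples, against 12.56, 12.19 and 12.62 in oil samples. The groups overlapped, since oil sample 2 was below tamoxifen samples 2 and 3. The ratios were -0.54, 0.26 and -0.25 (mean -0.18 ± 0.41, adjusted p = 0.82, limma). A second Vwf probe gave -0.62, 0.27 and -0.12, and the third gave -0.28, 0.13 and 0.06, which turned the sign in couple 3. Nos3, the endothelial nitric oxide synthase, was at -0.14, 0.25 and 0.31 (mean 0.14 ± 0.24). She, an SH2 domain adaptor, was at -0.11, 0.28 and 0.20 (mean 0.12 ± 0.20), and Egfl7, a secreted factor of the vessel wall, at -0.20, -0.06 and 0.02 (mean -0.08 ± 0.11). Like Esam, Robo4 and Emcn, Egfl7 was below 0 in couples 1 and 2 and above 0 in couple 3.

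**Figure D3:**
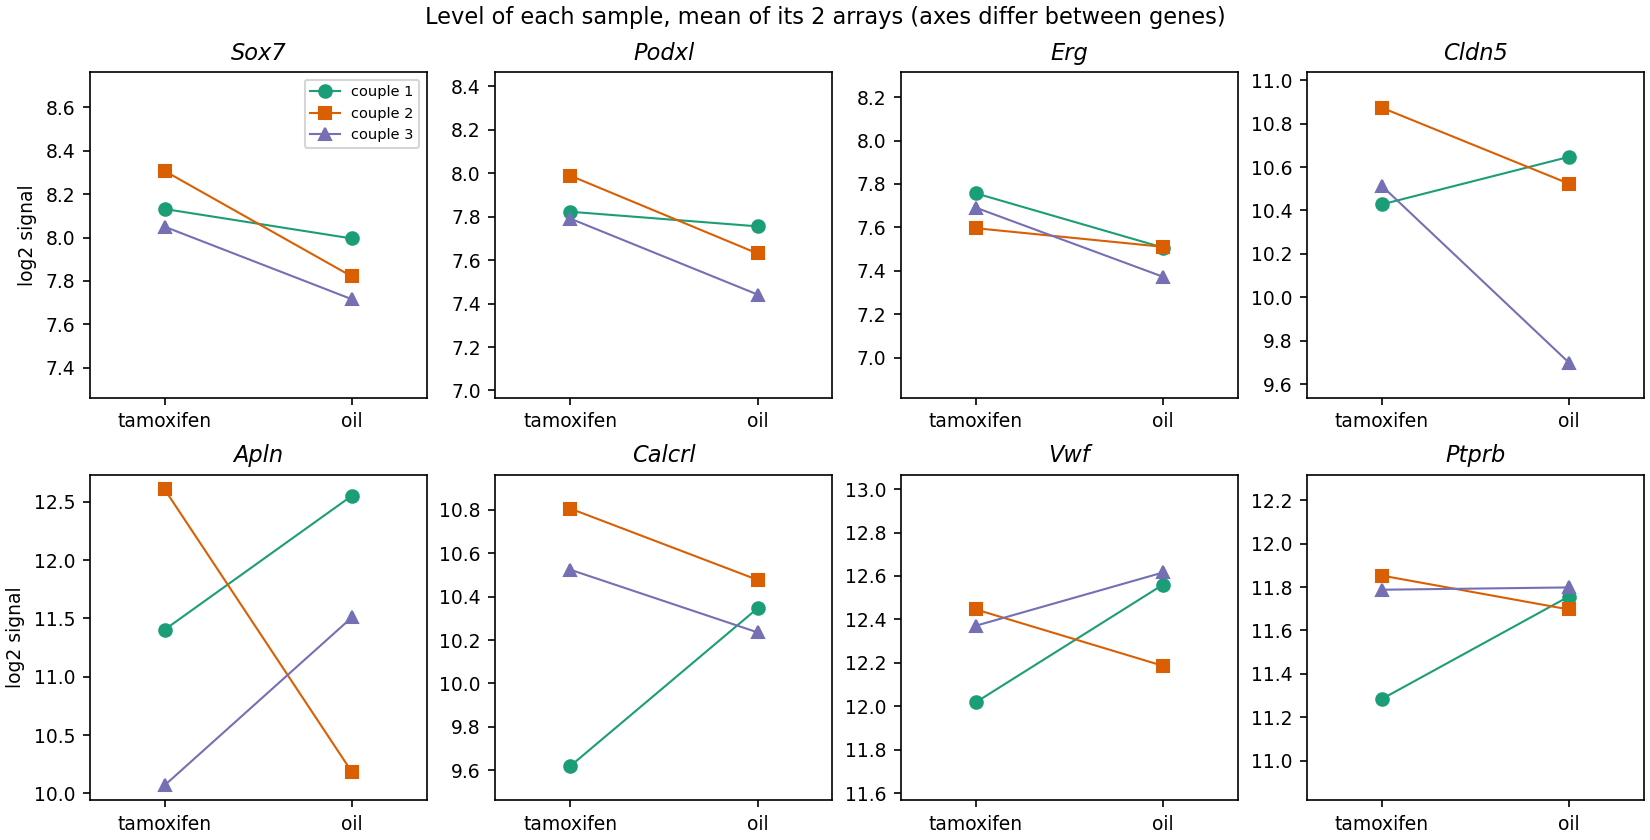
Log2 signal of the tamoxifen sample (left) and the oil sample (right) of couples 1, 2 and 3, joined by a line, for 8 members. The vertical axes differ between genes and do not start at 0, since they are log2 values. For Sox7, Podxl and Erg all lines slope down from tamoxifen to oil, while for Apln, Calcrl, Vwf and Ptprb at least 1 line slopes the other way.

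Over the 33 members the median SD between couples was 0.22 on the log2 scale, against 0.17 over all genes. The median SE of a member was 0.11. Without Apln, the medians of the remaining 32 were -0.13, 0.15 and 0.24 in couples 1, 2 and 3. By capillary type, the 5 general capillary genes (Gpihbp1, Plvap, Aplnr, Cd93 and Ptprb) had medians of -0.07, 0.15 and 0.04. Apln and Ednrb of the aerocytes were both below 0 in couple 1, like 28 of 33 members (51.5% of all genes). Both were above 0 in couple 2, like 29 of 33 members (49.8% of all genes). In couple 3 they parted, at -1.44 for Apln and 0.13 for Ednrb. The difference between capillary types was not tested.

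Ligands and partners of the members outside the set were followed as well, and 22 of 28 were tested. A mean above 0 was found for 10 (48.8% of all genes), 12 were below, and 0 passed. Their medians were -0.22, 0.11 and 0.12 in couples 1, 2 and 3. Sphk2, a kinase that makes sphingosine 1-phosphate, was below 0 in every couple, at -0.37, -0.34 and -0.23 (mean -0.31 ± 0.07, adjusted p = 0.69, limma), while Sphk1, which does so too, was at -0.48, 0.67 and 0.30. Edn1, an endothelin that Ednrb binds, was also below 0 in every couple, at -0.52, -0.27 and -0.04 (adjusted p = 0.69). Unc5b, a receptor that Robo4 engages, was above 0 in every couple, at 0.32, 0.15 and 0.40 (mean 0.29 ± 0.13, adjusted p = 0.69). The angiopoietins Angpt1 and Angpt2, which bind Tek, had means of 0.03 ± 0.31 and -0.004 ± 0.12. Adm, which encodes adrenomedullin, was at -0.28, 0.28 and 0.01. Lpl, the lipase that Gpihbp1 carries, was at -1.22, 0.11 and 0.11, so its low mean of -0.33 rested on couple 1.

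Further pan-endothelial genes and transcription factors had medians of the same signs by couple as the members, each nearer to 0. Of 30 further pan-endothelial genes 29 were tested, 17 had a mean above 0 (48.8% of all genes) and 0 passed. These genes had medians of -0.11, 0.05 and 0.13 in couples 1, 2 and 3. Of these, Vcam1, an adhesion molecule of activated endothelium, was at -0.19, -0.79 and -0.26 (adjusted p = 0.69), and Tspan7, a tetraspanin, at 0.76, 0.86 and 0.00 (adjusted p = 0.69). Of 18 endothelial transcription factors outside the set 16 were tested, and 9 had a mean above 0 (48.8% of all genes). In all couples 4 were above 0 (13.8% of all genes), and the medians were -0.02, 0.11 and 0.04. Foxf1, a forkhead factor of lung vessels, was at 0.14, 0.23 and 0.35 (mean 0.24 ± 0.10), and Bcl6b, a repressor found in endothelium, at 0.09, 0.13 and 0.58 (adjusted p = 0.69 and 0.70). Further aerocyte genes (8 of 9 tested) had medians of -0.15, -0.09 and 0.08, and further general capillary genes (8 of 9 tested) -0.23, 0.22 and -0.03. Arterial genes (12 of 13) had 0.06, -0.20 and 0.03, venous genes (8 of 8) -0.17, 0.03 and -0.08, and further lymphatic genes (8 of 10) -0.30, 0.01 and 0.11. In none of these lists did a gene pass the test.

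Markers of other cells also differed between the couples, and their part in the endothelial values was not tested. Of 13 alveolar macrophage markers, all tested, 13 were below 0 in couple 1 (51.5% of all genes) and 12 above 0 in couple 2 (49.8%). In couple 3 only 1 was above 0 (48.9% of all genes), against 26 of 33 members. These markers had medians of -1.06, 0.21 and -0.38. Their mean level was 10.47 to 11.86 in tamoxifen samples and 11.24 to 11.64 in oil samples. The 13 proliferation genes had medians of -0.26, 0.11 and 0.93, and levels of 9.95 to 10.32 in tamoxifen samples, against 9.21 to 10.34 in oil samples. By medians, the proliferation list had its lowest couple, 1, and its highest, 3, where the members did. The same held for the alveolar type 1, pericyte, further lymphatic, further aerocyte and further pan-endothelial lists and for the ligands and partners. The macrophage list shared the lowest couple but had its highest in couple 2. The 10 alveolar type 1 markers were at -0.28, -0.06 and 0.51, with levels of 12.29 to 12.70 in tamoxifen samples and 12.27 to 12.67 in oil samples. Erythroid genes (6 of 11 tested) ran otherwise, at 0.24, 0.996 and -1.64, with levels of 10.06 to 11.40 in tamoxifen samples and 10.08 to 11.86 in oil samples. Platelet genes (6 of 9 tested) were at -0.10, 0.00 and -0.23, with levels of 8.09 to 8.72 in tamoxifen samples and 8.23 to 8.56 in oil samples. Among vessel wall cells, pericyte markers (9 of 11 tested) had medians of -0.12, -0.09 and 0.14, and smooth muscle markers (7 of 9 tested) -0.10, -0.12 and 0.06. Alveolar type 2 markers (10 of 10 tested) had medians of -0.12, -0.27 and -0.26. Of these markers, 5 of 10 were below 0 in every couple (16.4% of all genes) and 6 of 10 in couple 1 (51.5%). Their levels were 14.80 to 14.87 in tamoxifen samples, against 14.99 to 15.30 in oil samples. Fibroblast markers (8 of 9 tested) were at -0.12, -0.11 and -0.20.

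**Figure D4:**
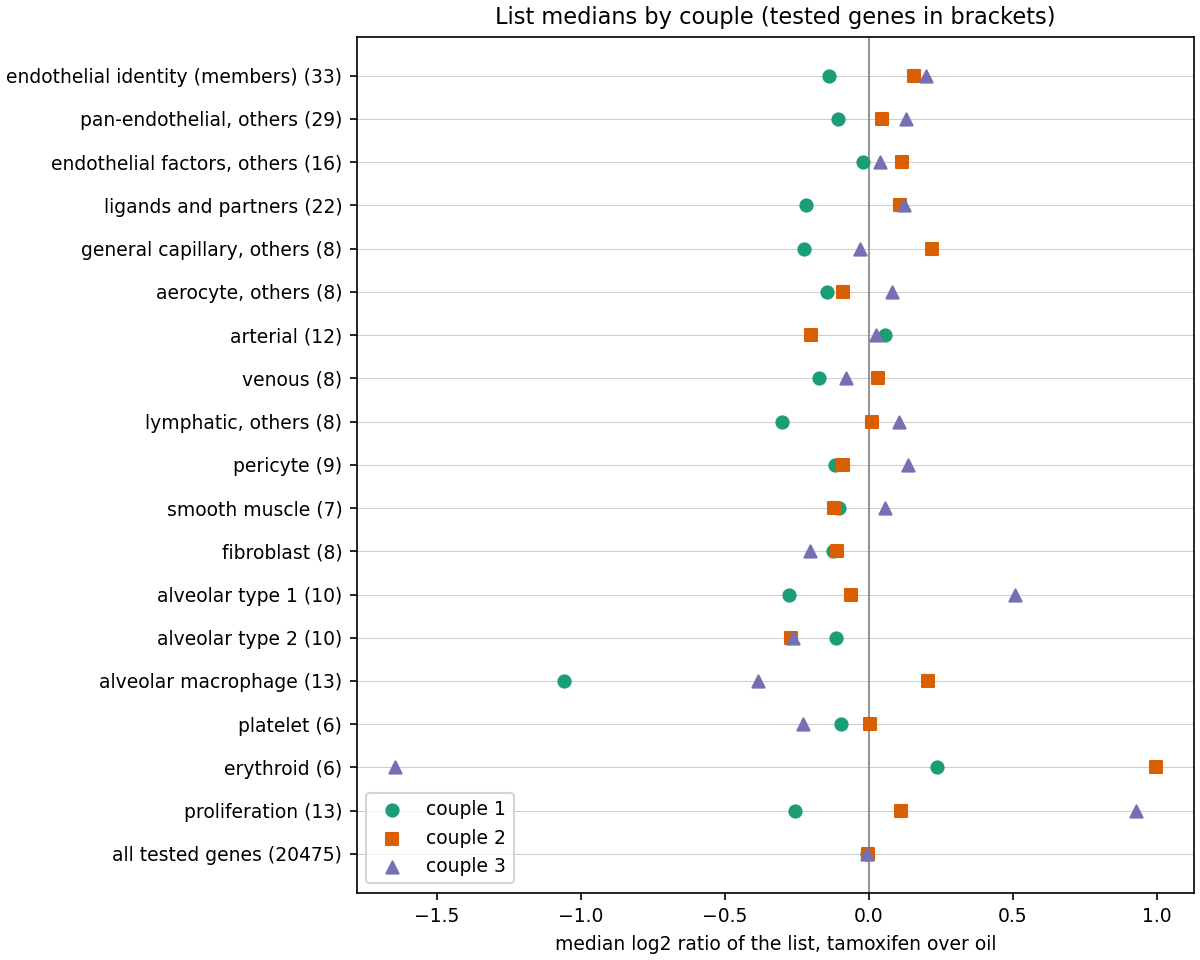
Median log2 ratio of tamoxifen over oil of each gene list in couples 1, 2 and 3 (circle, square and triangle), with the number of tested genes in brackets and all 20475 tested genes in the bottom row. The members and the further pan-endothelial genes lie left of 0 in couple 1 and right of it in couples 2 and 3. Alveolar macrophage, erythroid and proliferation lists span wider ranges.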

How the data were processed

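RNA of 3 tamoxifen and 3 oil tumor samples was measured on 6 two-colour Agilent mouse arrays from 50 ng of total RNA, per the labels' protocols. The arrays shared 1 slide and 1 scan, so there was no batch of slide or scan to test. Batches of any other kind were not tested. The members and the gene lists were chosen with earlier results of these data known. All 34 members are named. Values by sample are given for the 8 tested members with the smallest unadjusted p and the 6 with the largest SD over couples. In other lists the 2 genes with the smallest unadjusted p, or any ligand or partner, could be named.

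The deposited scanner files give spot intensity (mean foreground, median background, not normalized) for both channels. Agilent Feature Extraction 12.0.3.1 is named in the submitters' processing notes. Its log10 ratio, Cy5 over Cy3, is in the deposited files too and was made, per the file headers, with background subtraction, spatial detrending, then a linear and lowess correction for dye. The deposited value table holds log2 ratios in the same direction: set against the scanner's log10 ratio, its slope was 3.32 to 3.33 over 56305 probes (r between 0.977 and 0.9997). Column medians of this table were 0.14, -0.14 and -0.06 for couples 1 to 3 where Cy5 labelled tamoxifen, and 0.13, -0.15 and -0.01 where Cy3 did. Scale and direction are thereby known, and no further centring was found. Other deposited columns, scored 0 or 1 per the file headers, mark spots that are well above background, saturated or outlying.

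In limma 3.58.1 (R 4.3.3), normexp with an offset of 50 was applied to all 62976 spots, then loess within arrays with 3671 control spots at weight 0. Control spots and 276 to 391 outlier spots per array were left out, and 0 spots were saturated. Averaging spots gave 56605 probes for 36870 gene names. A gene was tested when its brightest probe passed the background flag on both arrays of 2 or more couples, in either treatment's channel. This left 20477 genes, of which 2 were dropped for a missing spot. Ratios were oriented as tamoxifen over oil and averaged over the dye exchange, so n = 3 couples, paired by the arrays they share. They were tested against 0, two-sided, with lmFit and eBayes and Benjamini-Hochberg adjustment over 20475 genes. Levels are log2 signals per channel after loess and Aquantile normalization and are not compared between genes. The offset draws ratios of dim probes toward 0, and the number of arrays limits the precision. Accessions of all 33 tested members matched current symbols and chromosomes in RefSeq (GRCm38.p6). The fit was tested on simulated data with changes larger than the mean ratio of any member. Its power at the size of the members' ratios was not checked. A search for GGAA was added after the other motifs had been searched.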

Additional observations from a re-analysis of the deposited data

How the results depend on the processing

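The fit was repeated under 19 alternatives, of which 1, a dye term with couples as a random replicate block, was chosen after seeing the data. They covered background correction, normalization, centring, the filter on dim probes, averaging of probes, the deposited ratios, single dye orientations, the pairing of samples and leaving out each couple. No endothelial member passed the threshold under any of them (limma, lowest adjusted p 0.37, with couples as a random replicate block). Over all genes 0 passed, except 56 (19 higher) with the 6 arrays and couples as a random replicate block, 9 (3 higher) when a dye term was added, and 1 (0 higher) with channels as 3 against 3 samples and no replicate block. With a fixed replicate block the count was 0, since that fit equals the paired ratios. The block fits count the 2 dye orientations of a couple as repeated readings. Their estimated correlation was 0.64 in the fit without a dye term. The members' median ratio, 0.08, ran between 0.04 and 0.20 when a couple was left out: 0.20 without couple 1, with 31 of 33 members above 0, 0.05 without couple 2, with 17 above 0, and 0.04 without couple 3, with 19 above 0. Leaving out couple 1, 2 or 3 turned the sign of the mean of 7, 7 and 9 members. Over all alternatives 13 members kept their sign, 12 of them above 0, Sox7, Podxl, Erg, Mmrn2, Sox18 and Cldn5 among them, and Egfl7 below 0. Signs over the alternatives were counted for members only, so no share of all genes stands beside these counts. Mean ratios over the alternatives ran between 0.18 and 0.46 for Sox7, 0.21 and 0.43 for Podxl, 0.17 and 0.36 for Erg, 0.11 and 0.28 for Mmrn2, 0.06 and 0.23 for Sox18, and 0.07 (without couple 3) and 0.58 (without couple 1) for Cldn5. Sox7 was lowest on the arrays with tamoxifen in Cy3 alone, and Podxl and Erg were highest with the scanner's and the deposited ratios. The cause of these shifts was not tested.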
